A study of Mus musculus with 4 samples.

Results

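The regions described here are IGF2BP2 peaks in coding sequence (CDS) that no peak of the other readers touched. A peak was included where its summit lay in the CDS of a protein-coding gene of the GENCODE M21 annotation (mouse build GRCm38), in no annotated UTR of that gene, and where the peak shared no base with a YTHDF2 or YTHDC1 peak. This gave 1669 peaks among 7069 in the IGF2BP2 list and 19866 in all 3 lists. They are called IGF2BP2-only CDS peaks below. They made up 51.4% of the 3244 IGF2BP2 CDS peaks, and 862 of the others overlapped 1 other list and 713 overlapped both. By the same measure, 55.1% of the 3825 IGF2BP2 peaks outside CDS, 49.4% of 2582 YTHDC1 CDS peaks and 15.5% of 1342 YTHDF2 CDS peaks overlapped no other list. The peaks were selected on measured values, the peak calls of the 3 lists and their overlap, so nothing is read from these shares.

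The series holds 4 mouse libraries of the lin- c-Kit+ fraction of bone marrow: RNA precipitated with an antibody to IGF2BP2, to YTHDF2 or to YTHDC1, and an input. The labels call the cells LIC. Only the series title calls them leukaemia cells, and no genotype, strain, transforming gene or animal age is given in the sources used here. All 4 libraries came from cells kept in IMDM with 10% serum, glutamine, penicillin/streptomycin and the mouse cytokines IL3, IL6 and SCF, crosslinked with UV light of 254 nm and sonicated before library preparation. Each group is 1 library, so no value below has a replicate check, and whether several animals were pooled is not stated. Input signal itself was not analysed here.

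IGF2BP2 is an RNA-binding protein with RRM and KH domains that is known to bind m6A-marked mRNA, in coding sequence and 3′ UTRs, and to stabilise it; its family is known as fetal and cancer-associated. m6A, a methyl group on adenosine, is placed mostly at GGAC and related motifs, often in long internal exons and near stop codons. YTHDF2 is known to speed the decay of marked mRNA in the cytoplasm, and YTHDC1 acts in the nucleus.

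Sequence around the summits was read from the spliced main transcript of each gene, that is, the one with the longest complete CDS. The stretches printed here are 29 nt each, 5′ to 3′ on the gene's strand, from the GENCODE M21 transcripts (GRCm38). The first set shows a GGAC, the core of the m6A motif, in capitals. It holds both peaks of Prmt6, an arginine methyltransferase gene named in the series title, and peaks of genes that had a high fold or many IGF2BP2-only CDS peaks, chosen after their sequences were seen because the motif lay within 20 nt of the summit.
Prmt6, weaker peak, chr3:110249942-110249970, minus strand: ggaacaagatacGGACatttccggagaga
Prmt6, stronger peak, chr3:110250557-110250585, minus strand: caacgggttggaGGACcgcgtgcacgtcc
Rnf20, chr4:49653089-49653117, plus strand: atggatgtcacaGGACaggcctttgagga
U2af2, chr7:5066488-5066516, plus strand: tcggcgcaaccgGGACcagcgcagtgcct
Kri1, chr9:21285260-21285288, minus strand: catgtacctgaaGGACtatgagaggaagg
Gga1, chr15:78884134-78884162, plus strand: tgctgtacagctGGACggtttgcctgcct
Syne1, chr10:5083874-5083902, minus strand: cctcagtgctgaGGACatctccatgctga
In Gga1 the GGAC was centred 1 nt from the summit, in Kri1 6 nt and in Rnf20 16 nt downstream of it. In Syne1 and U2af2 it lay upstream, at -4 and -8 nt, and in Prmt6 at -12 and -14 nt.

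The second set shows the purine repeats GAAGAA and GAGGAG, in capitals, because these words set the summits apart from the rest of the same genes more than GGAC did. In frame, both words encode 2 glutamate residues. These peaks were likewise chosen after their sequences were seen.
Cep152, chr2:125579920-125579948, minus strand: tcaaggagctgGAGGAGaaagtccactct
Ikzf2, chr1:69577929-69577957, minus strand: ggagcagcctaGAAGAAcccctaattgag
Fam133b, chr5:3557794-3557822, plus strand: tggctgagtttGAAGAAaaaatgaatgag
Utrn, chr10:12688341-12688369, minus strand: tgaacaccttgGAGGAGcgcgtgaggagc
Myo18a, chr11:77845753-77845781, plus strand: aggaccaggaaGAGGAGctggatgagcag
The repeat was centred 3 nt downstream of the summit in Myo18a, 5 nt in Ikzf2, 14 nt in Utrn and 16 nt in Fam133b. It lay upstream in Cep152, at -26 nt.

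Motifs were counted in windows that reach 50 nt to either side of the summit, which could be read for 1651 of the 1669 peaks. Beside them stand all windows of the same length that tile the CDS of the same genes end to end, weighted by the peaks of each gene, and the 339005 such windows of all genes. Shares carry exact (Clopper-Pearson) 95% intervals. These cover counting error only, and because several peaks can lie in 1 gene they are too narrow. GGAC on the sense strand was in 43.9% of the windows (41.4 to 46.3), against 39.8% in the same genes (ratio 1.10) and 37.8% in all genes. On the opposite strand GGAC was less frequent at the summits than in the same genes, with 23.0% against 27.1%. The longer words moved as little: GGACT was in 11.4% (9.95 to 13.1) against 10.3%, and TGGAC in 17.0% (15.2 to 18.9) against 15.4%. For both longer words the interval includes the share in the same genes.

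Along the transcript, GGAC was most dense at the summit but only slightly so. It began at 6.11 per 1000 positions in the 50 nt before the summit and at 6.15 in the 50 nt from it on. The density was 6.04 at 51 to 100 nt upstream and 5.75 at 50 to 99 nt downstream, so the nearest bins differed little. It was 5.34 at 151 to 200 nt upstream and 5.02 at 150 to 199 nt downstream. At YTHDC1-only CDS peaks it was highest, 6.43, at 50 to 99 nt downstream. For IGF2BP2 CDS peaks that overlapped both lists the highest value, 6.76, was at 51 to 100 nt upstream. These densities carry no interval.

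The purine repeats differed more. GAAGAA was in 27.6% of the windows (25.4 to 29.8) against 15.7% in the same genes, a ratio of 1.75, and against 9.93% in all genes. GAGGAG was in 20.5% (18.6 to 22.6) against 13.7%, and against 8.72% in all genes. CATA, CATC or CATT, variants of the CAUH element described for IGF2BP proteins, was in 46.2% (43.8 to 48.7) against 57.8%, a ratio of 0.800. Of the words counted, GAAGAA stood furthest above the same genes and the CAT words below them. GAAGAA and GAGGAG overlap longer runs of the same repeats, so a window can hold both.

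Base composition moved the same way. Summit windows held 60.4% purines on average (SD 7.59 over 1651 windows), against 55.4% in the CDS of the same genes. G made up 30.8% against 27.5% and A 29.6% against 28.0%, while C and T were at 21.8% against 24.5% and 17.8% against 20.1%. The GC content, 52.6%, was close to the 51.9% of the same genes. Of all words of 4 letters, GACG, GATG and GAGG had the highest ratios to the same genes, 1.31, 1.29 and 1.29, and TATA the lowest, 0.526. Other CDS peaks moved the same way. At IGF2BP2 CDS peaks that overlapped both other lists, purines were 64.5% against 56.4%, and these words had ratios of 1.52, 1.30, 1.44 and 0.361. At YTHDC1-only CDS peaks, purines were 58.1% against 53.0%, and the ratios were 1.40, 1.19, 1.43 and 0.351.

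In the reading frame, glutamate codons were more frequent than in the same genes. GAG made up 7.86% of the codons in the windows against 5.50% in the CDS of the same genes, and GAA 5.46% against 3.83%, ratios of 1.43 and 1.42. These ratios were higher, 1.97 and 1.81, at IGF2BP2 CDS peaks that overlapped both other lists, and were 1.82 and 1.35 at YTHDC1-only CDS peaks. The aspartate codon GAT was at 3.41% against 2.60% and the lysine codon AAG at 5.56% against 4.44%. The serine codon TCA, at 0.790% against 1.19%, and the tyrosine codon TAT, at 0.655% against 0.980%, were among those below.

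**Figure D1:**
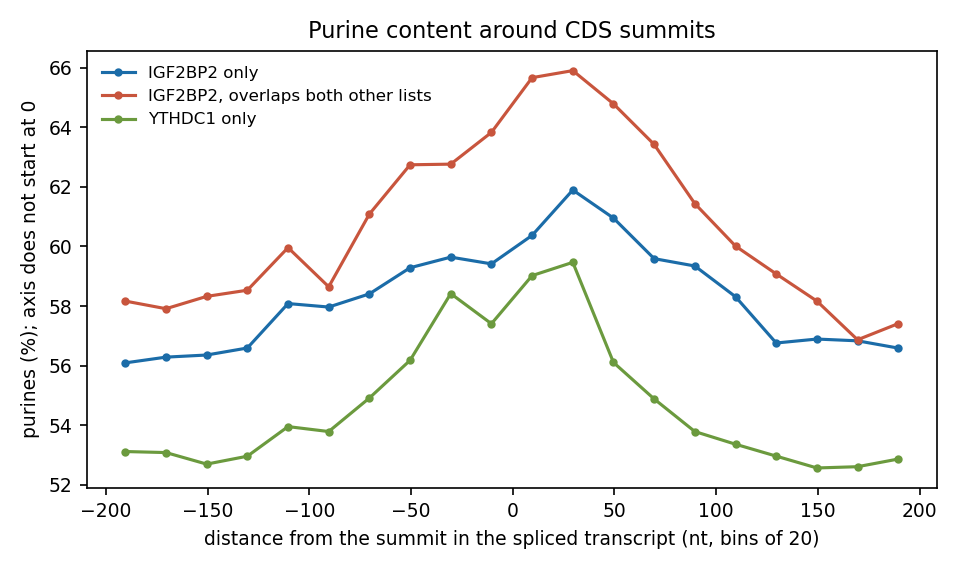
Mean purine content (percent, y axis, not starting at 0) in bins of 20 nt by distance from the summit in the spliced transcript (x axis) for IGF2BP2-only CDS peaks, IGF2BP2 CDS peaks that overlap both other lists, and YTHDC1-only CDS peaks; points are means over windows, without error bars. The IGF2BP2-only line rises from 56.1% at the upstream end to 61.9% at 20 to 39 nt after the summit and returns to 56.6%. The line of the peaks that overlap both lists lies above it in every bin. At the upstream end that line is at 58.2%, and at 0 to 19 nt at 65.7% against 60.4%.

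The same measures were taken at the 713 IGF2BP2 CDS peaks that overlapped both other lists and at the 1275 CDS peaks found by YTHDC1 only. GGAC was about as frequent in all 3 groups, at 41.8% (38.2 to 45.6) in the first and 41.9% (39.2 to 44.7) in the second. GAGGAG was not: it was in 42.6% (38.9 to 46.3) of windows that overlapped both lists and in 31.8% (29.2 to 34.4) of YTHDC1-only windows, against 20.5% at IGF2BP2-only peaks. GAAGAA was in 33.3% (29.9 to 36.9) and 15.6% (13.6 to 17.7). The ratios to the respective genes were 2.37 and 2.42 for GAGGAG and 1.94 and 1.54 for GAAGAA. The CAT words were further below their genes in both groups than at IGF2BP2-only peaks, with ratios of 0.530 and 0.501 against 0.800. IGF2BP2-only summits were the group with the lowest share of GAGGAG, and lay between the other groups in GAAGAA. Their GC content was also lower than the 61.5% of YTHDC1-only windows.

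GAGGAG was also compared at like pileup, the number of fragments the authors' file gives at the summit, and the intervals were apart in 1 of 4 classes. At a pileup of 10 to 24 GAGGAG was in 24.4% (17.1 to 33.0) of 123 IGF2BP2-only windows and in 43.4% (37.3 to 49.6) of 265 windows that overlapped both lists. At 6 to 9 the shares were 22.8% (18.6 to 27.4) of 373 and 33.3% (26.3 to 41.0) of 168, whose intervals meet. At 4 or 5 they were 20.4% (17.0 to 24.1) of 525 and 27.3% (16.1 to 41.0) of 55, and at 2 or 3 they were 18.6% (15.6 to 21.8) of 630 and 30.3% (15.6 to 48.7) of 33, so at low pileup no difference could be told. GAAGAA did not separate the groups in this way, with 35.8% (27.3 to 44.9) and 33.2% (27.6 to 39.2) at a pileup of 10 to 24.

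IGF2BP2-only CDS peaks were weak. The fold, the authors' ratio of pileup over local background, ran from 2.91 to 22.7 with a median of 4.93, and its middle 50% from 3.94 to 6.76. It was read as having 1 added to pileup and to background before division. The background implied in this way was within 1% of the lowest in the list for 46.1% of these peaks. There the fold is close to the pileup plus 1, so fold and pileup are not separate measures of strength. The median pileup was 4 (range 2 to 24), the median −log10 q was 6.42 (2.01 to 60.0) and the median width 122 bp. A pileup of at most 3 stood behind 37.9% of them, and 34.4% had the smallest width in the list, 100 bp. IGF2BP2 CDS peaks that overlapped both lists had a median fold of 11.7, a median pileup of 13 and a median width of 224 bp. Other groups were nearer. The medians were 6.90, 7 and 164 bp for IGF2BP2 CDS peaks that overlapped 1 other list. For YTHDC1-only CDS peaks they were 5.89, 6 and 118 bp. These values come from the contrast that chose the peaks and are given as a description.

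The share of CDS peaks without an overlap fell steadily with pileup. It was 78.1% at a pileup of 2 or 3, 69.0% at 4 or 5, then 378 of 821 peaks at 6 to 9, 26.3% at 10 to 14 and 11.5% at 15 to 24. Of the 216 CDS peaks with a pileup of 25 or more, 0 were without an overlap, which allows a share of up to 1.39% (3 counts of the total; the exact interval plotted reaches 1.69%). Among 390 genes that held both an IGF2BP2-only CDS peak and one overlapping another list, the overlapping peak had the higher maximum pileup in 288 (73.8%) and the IGF2BP2-only peak in 69 (17.7%). Weak peaks made up most of the group. The part of pileup in any result on it was not tested beyond the comparisons at like pileup.

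**Figure D2:**
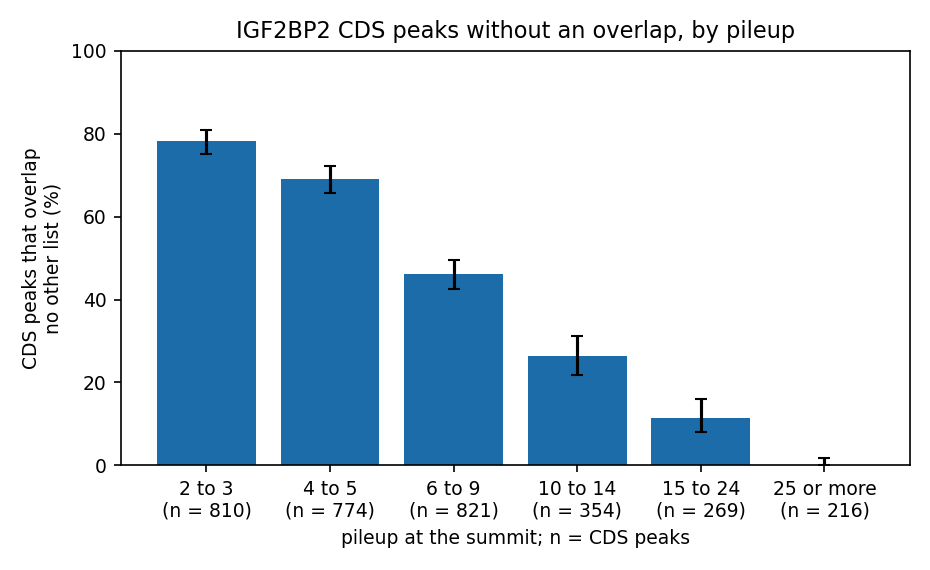
Share of IGF2BP2 CDS peaks that overlap no peak of the other lists (percent, y axis) by pileup at the summit (x axis, with the number of CDS peaks per class); bars are shares and whiskers exact 95% intervals for counting error. The share falls from 78.1% at a pileup of 2 or 3 to 0 of 216 peaks at 25 or more.

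By genomic distance, which counts introns, most IGF2BP2-only peaks lay more than 1000 bp from any peak of the other readers. A peak in the next exon of the same gene can thus count as distant. YTHDC1-only CDS peaks were alike, with 15.5% within 1000 bp of a peak of another list. For IGF2BP2-only peaks, the nearest one lay within 100 bp for 30, within 500 bp for 183 and within 1000 bp for 309 (18.5%). The closest IGF2BP2-only peaks were in Numa1, a spindle pole protein gene, with a gap of 8 bp to a YTHDC1 peak, and in Gpatch3 and the translation initiation gene Eif3c, with 12 bp each. Just outside the rule were CDS peaks in Cd44, a surface glycoprotein gene, in the centrosome gene Cep250 and in Med13l, a Mediator kinase module gene, which overlapped YTHDC1 peaks by 8, 9 and 11 bp. Their folds were 4.88, 2.92 and 3.31 inside and 5.92, 10.6 and 4.93 outside.

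The peaks lay in 1082 genes, 4.91% of 22028 protein-coding genes and 66.1% of the 1638 genes with any IGF2BP2 CDS peak. A single IGF2BP2-only CDS peak was held by 764 genes (70.6%), 2 by 196, and 3 or more by 122. For 434 genes (40.1%) these were the only IGF2BP2 peaks. Most of the genes had a peak of another reader somewhere in the gene body: both readers in 435 (40.2%), YTHDC1 without YTHDF2 in 328 and YTHDF2 without YTHDC1 in 38. The remaining 281 genes (26.0%), with 341 of the peaks, had none. The like share among all genes with an IGF2BP2 CDS peak is not given here, so 26.0% is not read as high or low.

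Long coding sequences held these peaks more often. The median CDS was 2370 nt in genes with an IGF2BP2-only CDS peak and 1188 nt over all 21567 genes with a complete coding transcript. Of genes with a CDS of at most 1000 nt, 1.38% held such a peak, of those with 1000 to 2000 nt 3.91%, with 2000 to 4000 nt 11.3%, with 4000 to 8000 nt 16.1% and above 8000 nt 22.7%. Per kb of CDS over all genes of a class, the number of peaks was 0.0233 up to 1000 nt and 0.0336 from 1000 to 2000 nt, and level above that, at 0.0625, 0.0621 and 0.0605. Long CDS were shared with the like groups: the median was 2203.5 nt in genes with CDS peaks that overlapped both lists and 2032.5 nt in genes with YTHDC1-only CDS peaks. How strongly each gene is expressed was not analysed here, so its part in these shares was not tested.

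The strongest IGF2BP2-only peak lay in Rnf20, whose product ubiquitinates histone H2B, with a fold of 22.7 and a pileup of 22 (exon 16 of 20, chr4:49652987-49653184). Rpsa, a small ribosomal subunit gene, followed with 22.3 in exon 2 of 7. Rpsa has many processed pseudogenes, so the origin of its reads is uncertain. The zinc finger gene Zfp148 had 20.5, Ankhd1, which encodes ankyrin repeats and a KH domain, 20.5, and the kinesin light chain gene Klc1 20.0. The centriole duplication gene Cep152 had 19.6 and Ikzf2, which encodes the lymphoid transcription factor Helios, 18.7. U2af2, which encodes the splicing factor that binds the polypyrimidine tract, had 18.2, Fam133b 17.8 and the ribosome assembly gene Kri1 17.8. Pileups of these 10 peaks, picked for their fold, ran from 17 to 24. A pileup of 15 or more was found at 1.86% of IGF2BP2-only CDS peaks and at 47.8% of those that overlapped both lists. A peak of YTHDF2 or YTHDC1 lay elsewhere in 9 of the 10 genes, in Rpsa 20 bp away and in Rnf20 264 bp away.

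Ankhd1 was the exception among the 10, with 0 peaks of the other readers in the gene body. It led the genes of this kind, followed by Gga1, a clathrin adaptor of the trans-Golgi, with a fold of 12.7, and Gps2, a subunit of the NCoR corepressor complex, with 11.6. Polr3g, an RNA polymerase III subunit gene, and Letm1, which encodes a mitochondrial inner membrane protein, had 10.8 each. Gga1, Gps2 and Letm1 each had 2 IGF2BP2-only CDS peaks. Among genes with no peak of the other readers the CDS was shorter, with a median of 1985 nt.

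Of the genes in the series title, Prmt6 belonged here and Mfsd2a, a lysophosphatidylcholine transporter gene, did not. Both Prmt6 peaks (chr3:110249892-110249991 and chr3:110250256-110250791) lay in exon 1 of 2, and Prmt6 had 0 peaks of the other readers. The stronger, with its summit at CDS position 414 of 1134 nt, rested on a pileup of 8 (fold 7.31, −log10 q 7.54). The weaker, at position 1027, rested on a pileup of 4 (fold 4.02), and its −log10 q of 2.01 was the lowest in the list. The nearest peak of another reader was 535852 bp away. The single Mfsd2a CDS peak of IGF2BP2 overlapped a peak of another list.

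The gene with the most IGF2BP2-only CDS peaks was Syne1, which encodes nesprin-1, a giant spectrin-repeat protein that links the nucleus to actin. It held 24 in 23 exons of a CDS of 26397 nt, with folds from 2.96 to 16.9 and a median of 5.33, and 11 further CDS peaks overlapped another list. They began at CDS position 3072 and ended at 24771, and a run of 6 lay between positions 22982 and 24771. The 2 strongest, with folds of 16.9 at position 23186 and 15.6 at position 6913, were far apart in the transcript.

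Utrn, which encodes the dystrophin relative utrophin, held 11 in as many exons, with folds up to 15.8. Their summits lay between CDS positions 1307 and 6983 of 10290 nt, and 0 lay beyond them. Cntrl, which encodes the centriole protein centriolin, had 10, with folds up to 15.2, between positions 389 and 5531 of 7002 nt.

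In Myo18a, an unconventional myosin gene, all 10 lay at position 2556 or later of 6249 nt, in 10 exons, with folds from 3.94 to 10.8. Arid4a, which encodes a chromatin-binding subunit of Sin3 complexes, had 9 in a CDS of 3783 nt, with folds up to 12.5, and 4 of them lay in its first 480 nt. These 5 genes had 2 to 9 YTHDF2 and 2 to 13 YTHDC1 peaks in their gene bodies, so the other readers were not absent from them. Ryr2, a ryanodine receptor gene known from heart muscle, also had 9 and is named because it tied with Arid4a.

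**Figure D3:**
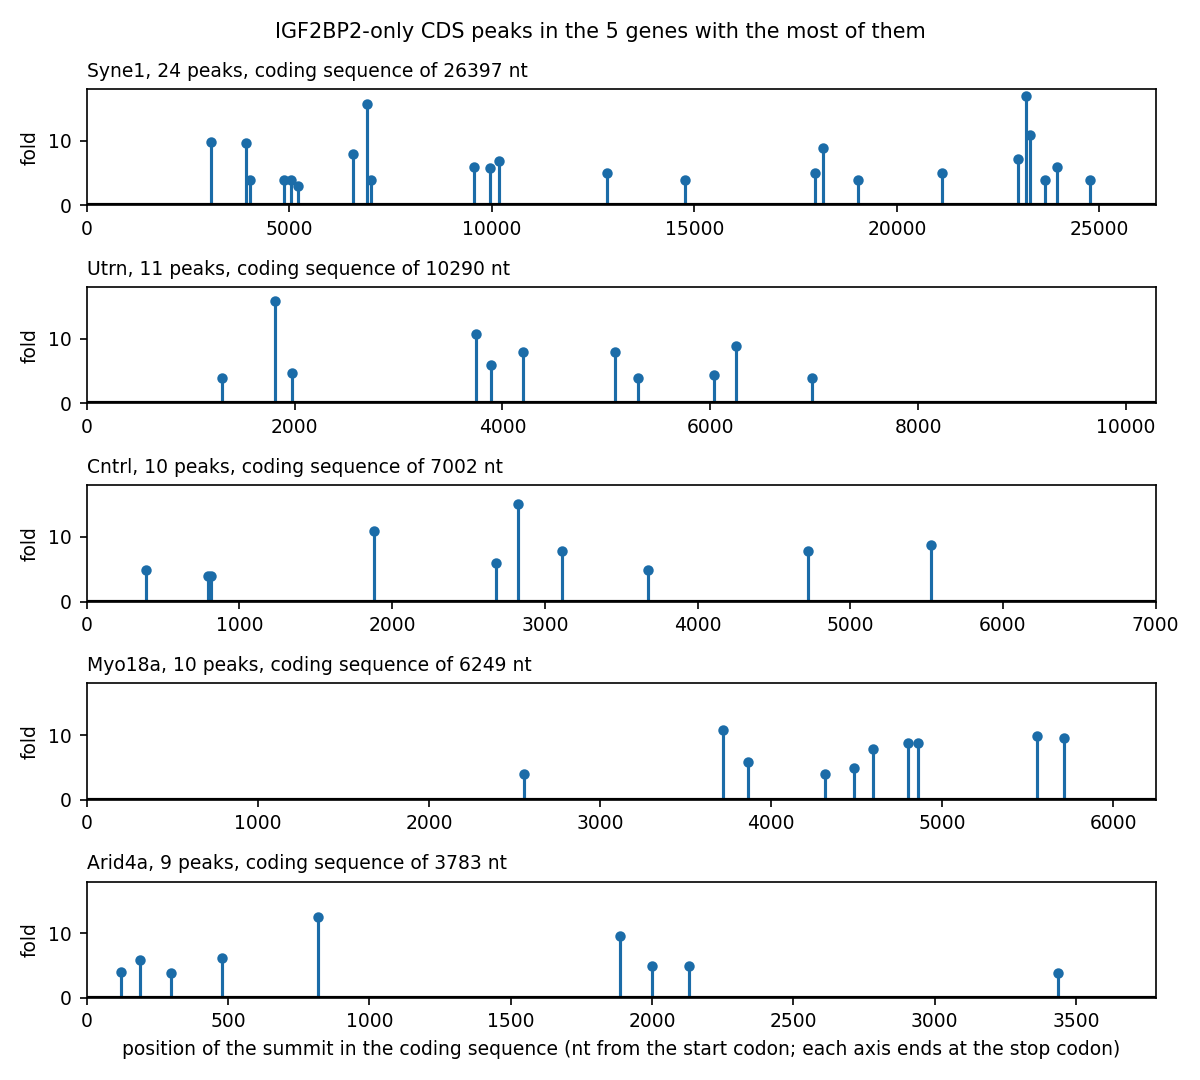
Summits of IGF2BP2-only CDS peaks along the coding sequence of the 5 genes with the most of them; x axis, nt from the start codon, with each axis ending at the stop codon; y axis, the authors' fold; each stem is 1 peak of 1 library, so there is no error bar. Syne1 has 24 stems spread from position 3072 to 24771, while the 10 stems of Myo18a all lie at 2556 or later.

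Among genes with 3 or more IGF2BP2-only CDS peaks, the number per kb of CDS favours short genes by construction, and the next genes were named after their values were seen. Suds3, a Sin3 deacetylase complex gene, had 4 peaks in 996 nt (4.02 per kb). The leukocyte tetraspanin gene Cd37 had 3 in 909 nt (3.30 per kb), the cell cycle kinase gene Cdk6 3 in 978 nt (3.07 per kb) and Lrpap1, a chaperone gene for LDL receptor family proteins, 3 in 1080 nt (2.78 per kb). Lrpap1 had 0 peaks of the other readers, whereas Cdk6 had 6 YTHDF2 and 13 YTHDC1 peaks elsewhere in the gene.

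Within the CDS, summits thinned out toward the stop codon. The CDS was divided into 5 equal parts. Of 1652 peaks placed on a main transcript, 25.5% lay in the first part, 22.5% in the next, then 20.8% and 19.1%, and 12.2% (10.6 to 13.8) in the last. The coding positions the rule allows, those in no annotated UTR, fell less, from 22.2% in the first part to 18.4% in the last. In the 200 nt before the stop codon lay 4.96% of summits (3.97 to 6.12) against 8.36% of allowed positions, a ratio of 0.594. In the 200 nt after the start codon it was 12.8% (11.3 to 14.5) against 11.0%.

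The share was below that of positions at low and at high pileup. At a pileup of 2 to 5 the share within 200 nt before the stop codon was 5.11% against 8.38% of allowed positions, at 6 to 9 it was 5.35% against 8.70%, and at 10 to 24 it was 2.44% against 7.12%, that is, 3 of 123 peaks. For peaks that overlapped both lists it was 7.93% (6.05 to 10.2) against 10.1%, and for YTHDC1-only peaks 9.80% (8.21 to 11.6) against 11.2%. IGF2BP2 CDS peaks that overlapped 1 other list had 6.07% (4.56 to 7.88) against 8.85%, and this interval meets that of IGF2BP2-only peaks. In the last of 10 equal parts of the CDS their ratio was 0.572, against 0.600 for IGF2BP2-only peaks. Over all pileups the ratio near the stop codon was 0.594 for IGF2BP2-only peaks and 0.686 for those that overlapped 1 other list. It was 0.783 for those that overlapped both lists and 0.875 for YTHDC1-only peaks. At a pileup of 6 to 9 this order was not seen: the peaks that overlapped both lists had 6.55% (3.31 to 11.4) against 10.8%, a ratio of 0.605, and the IGF2BP2-only peaks a ratio of 0.615. At a pileup of 10 to 24 the peaks that overlapped both lists had 4.91% (2.64 to 8.24) against 9.61%, and the interval of the IGF2BP2-only peaks (0.506 to 6.96) meets this one.

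**Figure D4:**
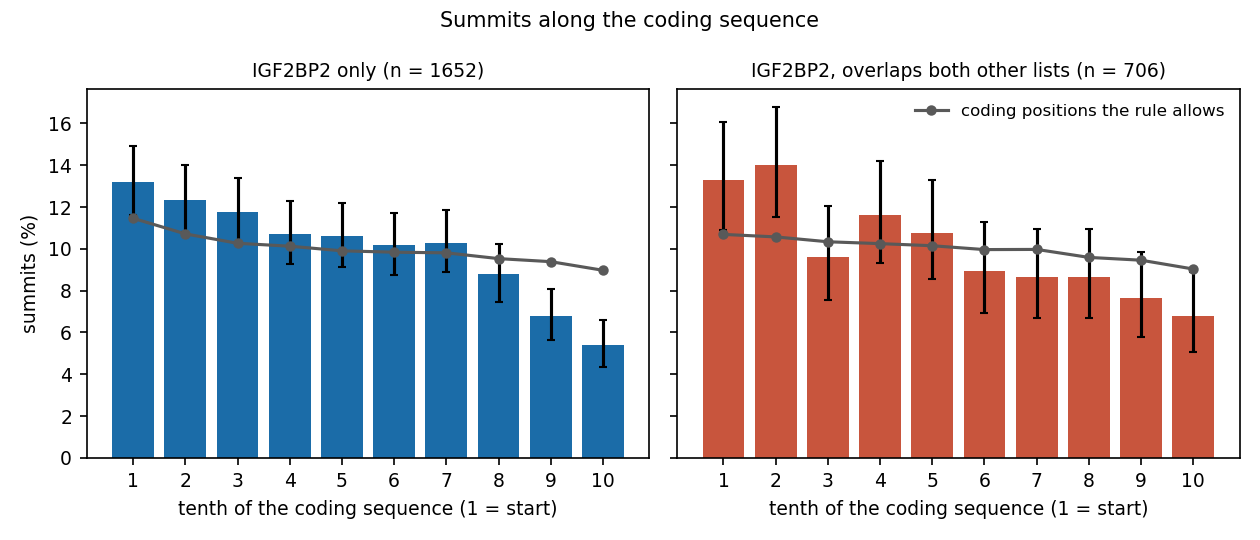
Share of summits (percent, y axis) in 10 equal parts of the coding sequence from start to stop codon (x axis) for IGF2BP2-only CDS peaks (left) and IGF2BP2 CDS peaks that overlap both other lists (right); bars are shares, whiskers exact 95% intervals for counting error, and the grey line is the share of coding positions that lie in no annotated UTR. On the left the last of the parts holds 5.39% of summits against 8.97% of positions.

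Exon structure set the groups further apart. Exons of at least 400 nt held 13.4% (11.8 to 15.1) of IGF2BP2-only summits against 20.1% of allowed positions. For peaks that overlapped both lists the shares were 24.1% of 706 summits and 24.8%, and for YTHDC1-only peaks 44.1% (41.4 to 46.9) and 37.3%. For peaks that overlapped 1 other list the shares were 20.5% (17.9 to 23.4) and 22.9%. At a pileup of 6 to 9 long exons held 16.6% (13.0 to 20.7) of IGF2BP2-only summits. The share was 24.4% (18.1 to 31.6) for peaks that overlapped both lists, so these intervals meet. At 2 to 5 the long-exon shares were 12.6% (10.8 to 14.7) and 30.7% (21.3 to 41.4). At 10 to 24 they were 10.6% (5.75 to 17.4) and 22.3% (17.4 to 27.8). Within 50 nt of an exon junction lay 60.0% (57.6 to 62.4) of IGF2BP2-only summits, as many as of positions (59.0%). By contrast, 38.8% (35.2 to 42.5) of summits that overlapped both lists lay there against 54.3% of positions, and 31.0% (28.4 to 33.6) of YTHDC1-only summits against 46.2%. At a pileup of 6 to 9 the shares were 57.8% (52.6 to 62.8) for IGF2BP2-only peaks and 40.5% (33.0 to 48.3) for those that overlapped both lists, and at 10 to 24 they were 56.1% (46.9 to 65.0) and 45.3% (39.2 to 51.5). At a pileup of 2 to 5 they were 61.2% (58.3 to 64.0) of 1155 summits and 39.8% (29.5 to 50.8) of 88. The intervals are apart at 2 to 5 and at 6 to 9 and meet at 10 to 24.

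The last exon held 5.45% of IGF2BP2-only summits against 8.33% of allowed positions, and the first exon 4.90% against 5.06%. For YTHDC1-only peaks the first exon held 25.7% against 14.3%. As genomic intervals, 647 IGF2BP2-only peaks (38.8%) lay wholly in annotated exons, and the other 1022 had a median of 66.0% of their length in exons. Peaks that overlapped both lists were alike, with 33.7% wholly in exons, and YTHDC1-only peaks were not, with 66.9%.

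Gene lists were counted beside the 4.91% of all protein-coding genes with an IGF2BP2-only CDS peak. In 40 lists of 828 genes, 211 genes (25.5%) held one. The lists were picked with earlier results of these data known and lean toward widely expressed genes, many with long CDS. The 4.91% counts all genes, with or without an IGF2BP2 CDS peak. Of the 1638 genes with such a peak, 66.1% held an IGF2BP2-only one. By that measure, chromatin remodellers had 16 of 19 and DNA methylation and cohesin 12 of 13. Histone methyltransferases and demethylases had 9 of 20, endoplasmic reticulum chaperones 3 of 7 and ribosomal proteins 5 of 14. A list can thus lie above 4.91% and below 66.1%. The counts describe the lists, and nothing is called particular to them.

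Chromatin remodellers had the highest share of the 40 lists. Of 24 chromatin remodeller genes, 16 (66.7%) had an IGF2BP2-only CDS peak, with a median CDS of 5307 nt. The CHD family helicase gene Chd7 led with a fold of 12.5 and had 6 such peaks, followed by the SWI/SNF ATPase gene Smarca4 (9.86), its partner Smarcc1 (8.91) and Bptf, a NURF subunit gene (8.91). Of 22 genes of DNA methylation and cohesin, 12 (54.5%) had one, led by the maintenance methyltransferase gene Dnmt1 (13.7) and the cohesin genes Smc1a (12.5), Stag2 (8.88) and Pds5a (8.68). Of 24 histone acetylation genes, 10 had one, with the bromodomain gene Brd8 at 8.86 and the corepressor gene Ncor1 at 7.88. Of 30 histone methyltransferase and demethylase genes, 9 had one, with Ash1l at 7.89. In histone genes the count was 2 of 15, led by the macroH2A gene H2afy (11.6).

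Among lists of RNA handling and protein synthesis, shares ran from 14.7% to 48.3%. Of 29 core spliceosome genes, 14 (48.3%) had one: besides U2af2, the highest folds were in Srrm2 (11.6), the helicase gene Snrnp200 (8.02) and Sf3b2 (7.05). Of 25 translation initiation genes, 10 had one, led by the scaffold gene Eif4g3 (16.9), the eIF3 subunit gene Eif3b (12.5) and Eif5b, which encodes a GTPase of subunit joining (11.7). Of 23 hnRNP genes, 9 had one, with Hnrnpdl at 17.1, Hnrnpa1 at 11.2 and Hnrnph1 at 8.50. Reads of Hnrnpa1, Eif4a1 (8.83) and other genes with processed pseudogenes are uncertain. SR splicing genes had 2 of 12, Srsf1 (9.52) and Srsf4 (8.91). For cytoplasmic ribosomal proteins, whose median CDS was 629 nt, the count was 5 of 34, and besides Rpsa the highest fold was in Rpl4 (9.43). The proteasome list, with a median of 946.5 nt, had 5 of 30.

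In the cytoskeleton and cell division, 16 of 28 actin and myosin genes (57.1%) had an IGF2BP2-only CDS peak, 46 peaks in all. Besides Myo18a, the spectrin gene Sptbn1 had a fold of 10.8, the plectin gene Plec 10.5 and the microtubule-actin crosslinker gene Macf1 7.89. Of 27 membrane traffic genes, 9 had one, led by the dynein heavy chain gene Dync1h1 (16.8, with 7 peaks) and the dynamin gene Dnm2 (12.0). Of 25 mitosis genes, 8 had one, with the kinesin genes Cenpe and Kif4 at 5.92 each. Among DNA replication genes it was 7 of 28, led by the helicase cofactor gene Cdc45 (9.86) and the topoisomerase gene Top2a (8.02, with 4 peaks), both with 0 peaks of the other readers. Cytosolic chaperones had 9 of 18, led by Hspa4 (10.7) and Hsp90aa1 (9.56).

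Signalling genes and blood regulators were counted in the same way. Of 36 transcription factor genes of stem and leukaemia cells, 6 (16.7%) had one. Besides Ikzf2, these included the progenitor regulator Myb (15.2, with 3 peaks), Zeb2 (13.4) and Myc (8.24). Of 26 genes of cytokine receptors and JAK-STAT signalling, 6 had one, led by the receptor gene Csf2ra (5.48) and the kinase gene Jak1 (4.93, with 3 peaks). Ras and MAP kinase genes had 2 of 22, and mTOR and PI3K genes 3 of 24, led by the kinase gene Akt1 (5.86). For m6A writers and erasers it was 2 of 14: the demethylase gene Alkbh5 (3.77) and the writer subunit gene Zc3h13 (3.64). In m6A readers it was 1 of 11, Igf2bp2 itself, with a pileup of 3 and a fold of 3.90 in exon 1 of 16. Besides Prmt6, the arginine methyltransferase gene Prmt3 (5.38) had one, 2 of 10 genes in all, and of 16 choline phospholipid genes 1 did, Pcyt1a, a phosphatidylcholine synthesis gene (4.88).

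Over all genes, 1082 held an IGF2BP2-only CDS peak and 502 a CDS peak that overlapped both other lists, and list counts are given beside these. The counts of the former against the latter were 8 against 1 of 25 for mitosis, 6 against 0 of 26 for cytokine receptors and JAK-STAT, 10 against 3 of 24 for histone acetylation and 12 against 3 of 22 for DNA methylation and cohesin. They were 16 against 15 of 28 for actin and myosin. Fewer genes had an IGF2BP2-only peak among endoplasmic reticulum chaperones, with 3 against 6 of 13, and ribosomal proteins, with 5 against 10 of 34. The same held for m6A readers, with 1 against 3 of 11, and for translation elongation and termination, with 4 against 5 of 10. It also held for histone genes, with 2 against 3 of 15, and for RNA polymerase II and Mediator, with 3 against 4 of 22. These differences were not tested.

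**Figure D5:**
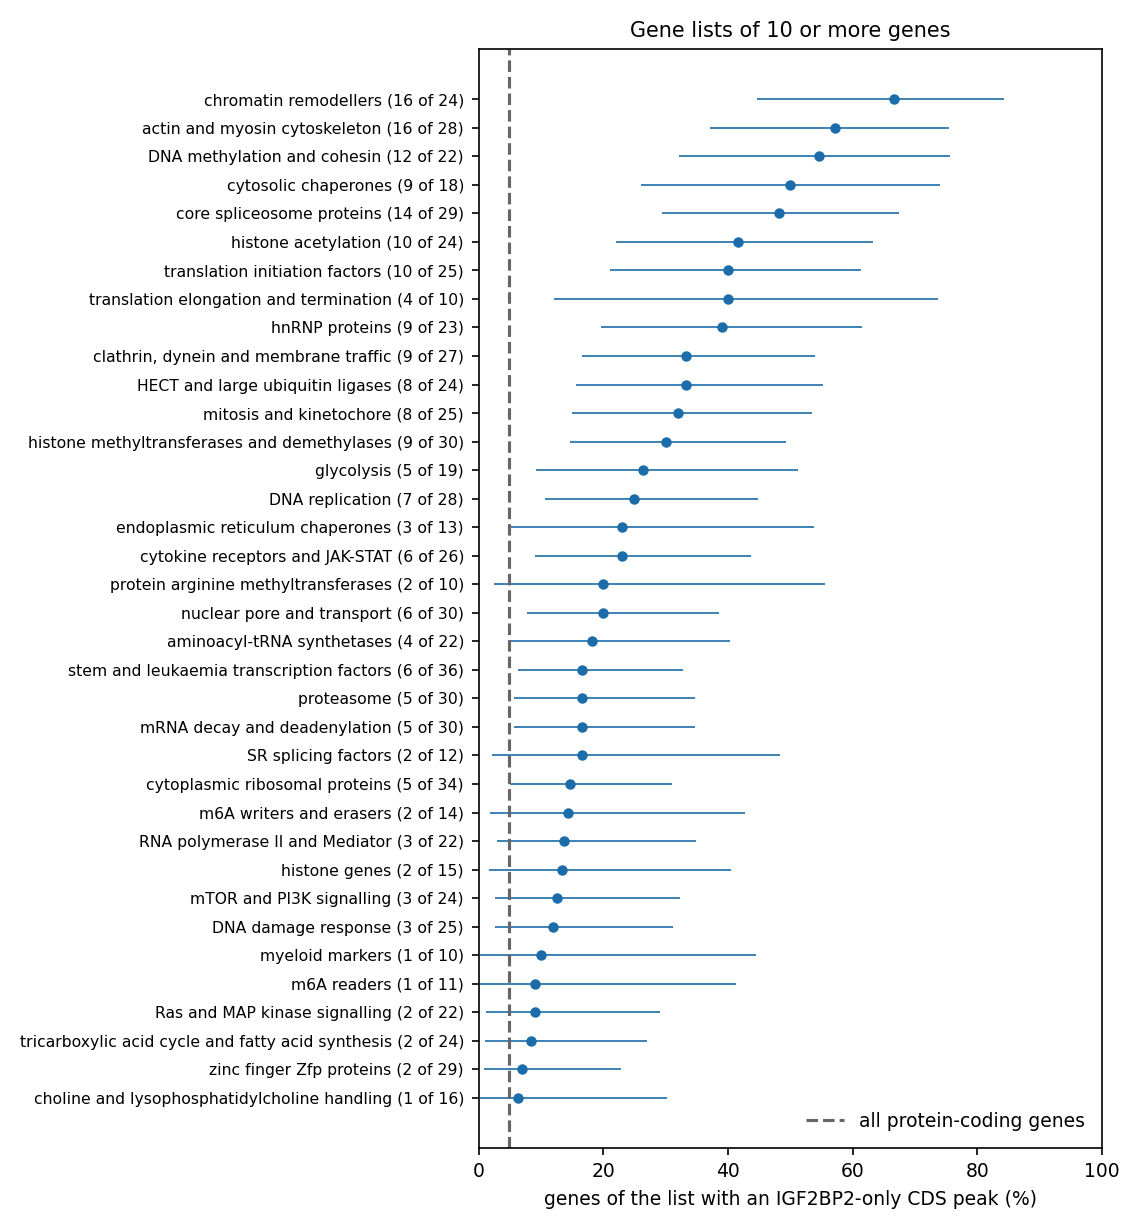
Share of the genes of each list that hold an IGF2BP2-only CDS peak (percent, x axis) for the lists of 10 or more genes (y axis, with counts); points are shares, whiskers exact 95% intervals for counting error, and the dashed line is the 4.91% of all protein-coding genes. Chromatin remodellers, with 16 of 24 genes, are highest, and the choline list, with 1 of 16, lies near the line.

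Marker genes say little about the labelled cell type in a list of this kind, because a peak needs both expression and binding. IGF2BP2-only CDS peaks lay in 2 of 8 stem and progenitor markers, Myb and Meis1 (5.83), in 1 of 10 myeloid markers, Csf1r (2.96), and in 0 of 8 lymphoid, 0 of 6 erythroid and 0 of 6 stromal and endothelial markers. By chromosome, the share of CDS peaks that were IGF2BP2-only ran from 38.0% of 142 on chromosome 19 to 61.7% of 94 on chromosome 3, leaving out the Y chromosome with its 1 peak.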

How the data were processed

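RNA bound by IGF2BP2, YTHDF2 and YTHDC1 was sequenced in 1 library each. The submitters' processing notes name HISAT2, GRCm38, Trim Galore and bcl2fastq 2.17; the peak caller is not given in the sources used here. The deposited lists give a fold ratio of pileup over background, −log10 p- and q-values, and a score of 10 times the −log10 q. The fold was read as having 1 added to both of its terms. The pileup signal and peak length are named per the file headers. Library totals are not in the files used, so depth is unknown.

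Summits were placed with GENCODE M21; overlap meant at least 1 bp, in any of several host genes (15 peaks). Peaks have no strand, which leaves genes that overlap or lie antisense unresolved. Python 3.11.15, pandas 2.3.3, numpy 2.4.6, scipy 1.17.1 and matplotlib 3.10.9 were used, and the steps were tested on simulated data. With 1 library per reader there is no test, and no p-value is given.

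Genes named are Prmt6 and Mfsd2a, the 10 highest folds at a −log10 q of at least 5, the 5 genes with most peaks, the 5 highest folds without a peak of another reader, the 3 peaks on each side of the overlap rule, and up to 4 per gene list by fold; others are said to be chosen later. The members and lists were chosen with earlier results of these data known. Alternatives changed the peak threshold (fold, pileup or −log10 q of at least 5), the overlap rule, the list length, the annotation and the window.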

Additional observations from a re-analysis of the deposited data

How the results depend on the processing

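The GGAC share kept its place above the same genes, and the share near the stop codon its place below the allowed positions, under every alternative run. The ratios ran from 1.05 to 1.16 and from 0.517 to 0.726. At equal list length the GGAC interval, 39.9 to 48.2, included the 40.1% of the same genes. Counts and strength followed the threshold. A fold of at least 5 left 727 peaks in 519 genes with a median fold of 6.90, and 14.2% in genes without another reader; a pileup of at least 5 left 734, 523, 6.90 and 14.0%. Equal list length gave 571 peaks, 420 genes, 8.63 and 24.7%. A −log10 q of at least 5 gave a median fold of 5.74. The share in genes without another reader was 22.9% with a gap of over 500 bp. GGAC was in 25.8% of 51 nt windows (22.2% in the same genes) and 66.1% of windows that reach 100 nt to either side (63.0%). Within 400 nt before the stop codon lay 12.3% of summits against 16.9% of positions. Of 2 alternatives added after the data were seen, leaving out the 27 genes with 5 or more peaks gave 23.2% without another reader. Taking 1 peak per gene, by fold, gave 1082 peaks, 26.0% without another reader and 6.17% near the stop codon, against 9.89% of positions. The causes were not tested. No paired analysis was possible because each reader has 1 library, and no test was run here between the lists. Depth is unknown, and a pileup of 2 to 5 stood behind most peaks, so absence from a list cannot be read as absence of binding.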
